A study of Drosophila melanogaster with 12 samples.

Results

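The change in translational efficiency of each mRNA after depletion of Porthos was measured in Drosophila melanogaster S2 cells, a cultured line from embryos that resembles blood cells (hemocytes). It is the log2 ratio of polysome to input RNA with porthos dsRNA minus the same log2 ratio with GFP dsRNA. All 12 libraries of the series entered, and 9024 of the 17023 gene identifiers in the files had enough counts to be tested. The GFP dsRNA groups are the control, and the other groups received dsRNA against porthos (CG9253), each at 1 µg. Cells were passaged after 48 h and harvested 3 days later. Cycloheximide at 100 µg/ml was given for 3 min to every sample, an input of 20% was set aside from each lysate, and the remainder was run on a sucrose gradient of 10% to 50%. The lysis buffer contained EDTA, per the labels' protocols. EDTA binds the magnesium that holds ribosomes together, the buffer was the same for both dsRNAs, and its part in the ratios was not tested. Each of the 4 groups (input and polysome, with GFP and with porthos dsRNA) has 3 libraries. An input and a polysome library with the same dsRNA and the same number were taken as 1 lysate, which gives 6 lysates. Whether numbered samples are separate cultures is not in the labels, so the p-values cover the spread among these samples only, and that spread may be technical.

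Messenger RNAs that are being translated carry several ribosomes, and these polysomes sink far into a sucrose gradient. The share of an mRNA found there depends on how often ribosomes start on it and on how many fit on its coding sequence. Porthos is a DEAD-box RNA helicase of a family that works in the maturation of ribosomal RNA. The question here is which mRNAs moved onto or off polysomes when Porthos was scarce.

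Input libraries held from 9648377 to 11918941 counts and polysome libraries from 7559406 to 9453365. Of the hemocyte markers, crq reached 216 to 254 CPM (counts scaled to a common library total) and srp 106 to 171. NimC1, Sr-CI and He were at most at 1.14, 2.04 and 2.7 CPM. Of markers of other cells, the fat body gene Lsp1alpha had 0 counts in every library and the muscle gene Mhc at most 1.9 CPM. But the muscle gene Mlc2 had 5.33 to 13.6 CPM, the germline gene osk 9.73 to 15.7 and the neuronal gene elav 65.4 to 150. The part of these in the results was not tested. The polysome library of porthos lysate 3 had counts for 10377 genes, where the other 11 libraries had counts for 11485 to 11864. Over 6637 genes with a mean of at least 10 CPM, the ratios of porthos lysate 3 correlated with those of the other lysates at r = 0.725 to 0.793. The ratios of porthos lysate 2 correlated with those of the GFP lysates at r = 0.899 to 0.933, and with those of porthos lysates 1 and 3 at 0.879 and 0.752. These correlations are across genes, which are not independent replicates.

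porthos mRNA itself (symbol pths, dm6 chromosome 2L, 21143229 to 21145146, plus strand) had 220.2, 226 and 222 CPM in the 3 GFP inputs and 106, 108 and 95.8 CPM in the 3 porthos inputs. On polysomes it had 326, 321 and 314 CPM with GFP dsRNA, and 113, 141 and 93.7 CPM with porthos dsRNA. Every porthos library lay below every GFP library of its kind. The log2 ratio of polysome to input was 0.56, 0.50 and 0.50 in the GFP lysates and 0.10, 0.39 and -0.03 in the porthos lysates. The ratio differed by -0.36 ± 0.11 (SE; edgeR, adjusted p = 0.062), which did not pass the test. Porthos lysate 2 had the most porthos mRNA on polysomes of the porthos lysates. This transcript is the direct target of the dsRNA, and its ratio cannot be read as a change in translation.

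edgeR's quasi-likelihood test called a change in translational efficiency for 227 genes (2.52% of those tested), with 0.05 as the limit of the adjusted p. The ratio rose for 175 genes (1.94%) and fell for 52 (0.576%). The changes were small: the median was 0.46 among the genes that rose and -0.55 among those that fell, and 1 and 3 of them reached 2-fold (eIF4B, and CG13751, mRpS14 and hpRNA:CR32205). With the limit at 0.1 there were 422 higher and 162 lower genes, and with 0.05 for the unadjusted p 1025 and 643. Without the term for lysates 7 genes were higher and 2 lower, and these 9 were among the 227.

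mRNAs that rose were poor in polysomes with GFP dsRNA, and most of those that fell were rich in them. Of the 175 genes that rose, 174 had a log2 ratio below 0 with GFP dsRNA (median -0.71), and the median with porthos dsRNA was -0.20. Of the 52 that fell, 49 had a log2 ratio above 0 with GFP dsRNA (median 1.04), and the median with porthos dsRNA was 0.50. The GFP ratio is also the term subtracted in the change, so both share libraries, and these medians are a description. The polysome side of the ratio moved more than the input side. Among the genes that rose, the median log2 change from GFP to porthos dsRNA was 0.02 in input and 0.52 on polysomes, and among those that fell it was 0.19 and -0.36.

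**Figure D1:**
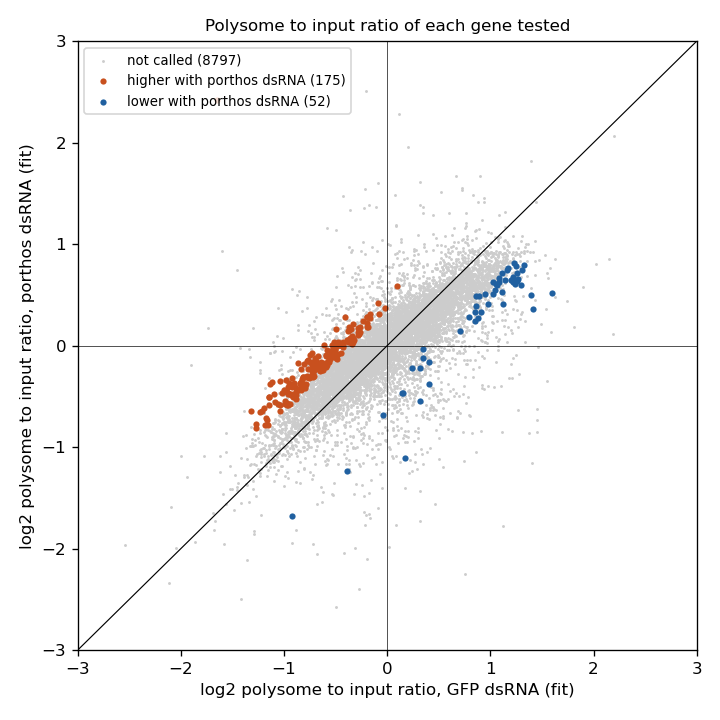
Log2 polysome to input ratio of each of 9024 genes with GFP dsRNA (x) and porthos dsRNA (y), from the fit, with the line of equal ratios; 4 genes lie outside the axes at ±3. The 175 genes called higher (orange) lie above the line and mostly left of 0, and the 52 called lower (blue) lie below it and mostly right of 0.

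The calls leaned on single lysates. In 162 of the 175 genes that rose and 35 of the 52 that fell, porthos lysate 2 was the porthos lysate nearest to the GFP lysates. Median ratios of the genes that rose were -0.81, -0.65 and -0.64 in the GFP lysates and -0.15, -0.41 and -0.06 in porthos lysates 1, 2 and 3. Without porthos lysate 2, 782 genes were higher and 268 lower in edgeR's test, and without porthos lysate 3, 21 and 11. Without GFP lysate 1 or porthos lysate 1, 0 genes were called (941 and 1170 genes at an unadjusted p under 0.05), without GFP lysate 2 the counts were 6 and 3, and without GFP lysate 3 they were 91 and 98. All 175 and 52 genes had the same sign of change in each of these 6 fits. The fits share libraries with the calls, so the call itself favours this. Scaling by library totals alone gave 75 higher and 71 lower genes, so that 51.4% of calls were higher in place of 77.1%, and moved the median over all genes from -0.0055 to -0.048. With a filter at a mean of 10 CPM, 108 genes were higher and 74 lower (59.3% higher).

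**Figure D2:**
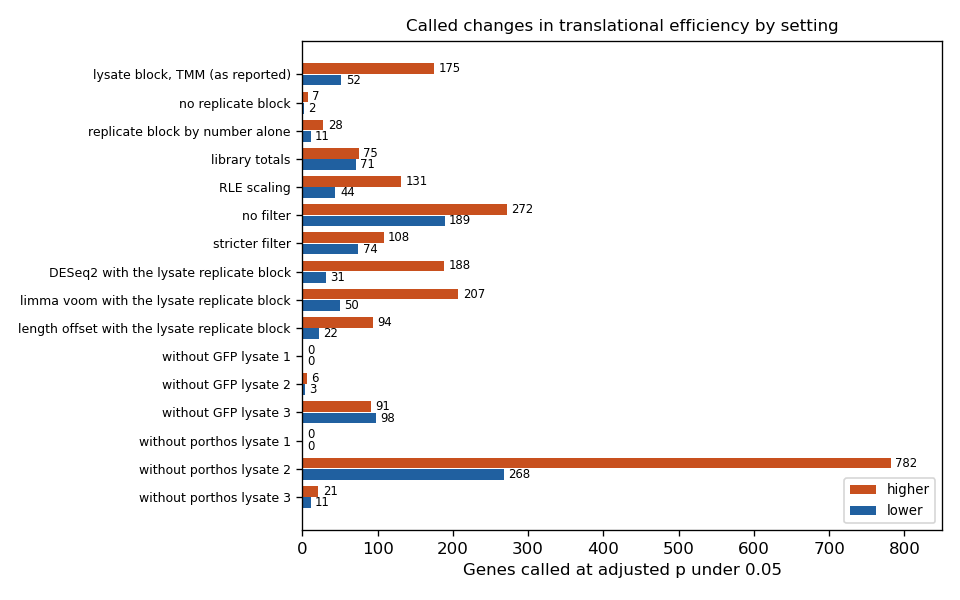
Number of genes called higher (orange) and lower (blue) in translational efficiency at an adjusted p under 0.05, for the fit as reported (175 and 52) and each alternative. The bars run from 0 and 0 without GFP lysate 1 or porthos lysate 1 to 782 and 268 without porthos lysate 2.

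The ratios of the 3 porthos lysates all lay above those of the 3 GFP lysates for 1092 genes (12.1%) and all below for 828 (9.18%). Among called genes the lysates were apart for 170 of 175 and 51 of 52, which the call itself favours. The spread of log2 ratios across genes was also compared. Its interquartile range was 0.93, 0.75 and 0.76 in the GFP lysates and 0.68, 0.71 and 0.72 in the porthos lysates. Every porthos lysate had a narrower range than every GFP lysate, with a mean difference of -0.11 (exact permutation test, two-sided p = 0.1, the smallest that 3 lysates against 3 allow). Without GFP lysate 1 the difference was -0.05.

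The changes varied with coding length. Among the 8419 protein-coding genes tested, split by coding length into 5 classes of about equal size, class 1, with coding sequences of 75 to 732 nt, had a median change of -0.16, and 76.2% of its genes lay below 0. In this class 40 of 1688 genes fell (2.37%, against 0.576% of all genes tested) and 1 rose. Class 2 had a median of -0.016, class 3 one of 0.067, class 4 (1668 to 2604 nt) one of 0.086 and class 5, the longest, one of 0.029. In classes 3 and 4 66 and 62 genes rose (3.92% and 3.69%, against 1.94% of all), and 0 and 2 fell. In classes 2 and 5 28 and 13 rose (1.66% and 0.772%), and 4 and 0 fell. The called genes that fell had a median coding length of 355.5 nt and those that rose one of 1560 nt, beside 1398 nt over all genes tested.

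The gradient was present in every lysate and was less steep in the porthos lysates, with a difference that GFP lysate 1 enlarged. mRNAs of class 1 had median log2 ratios of 0.80, 0.59 and 0.59 in the GFP lysates and 0.53, 0.54 and 0.45 in the porthos lysates. Those of class 5 had -0.55, -0.44 and -0.45, and -0.48, -0.44 and -0.44. Short mRNAs thus had the higher ratios in every lysate, although fewer ribosomes fit on a short coding sequence. The reason was not tested. The difference between classes 1 and 5 was 1.14 ± 0.19 with GFP dsRNA and 0.96 ± 0.06 with porthos dsRNA (SD, n = 3). It was smaller in each porthos lysate than in each GFP lysate (1.04 in GFP lysates 2 and 3 and 1.00 in porthos lysate 1 were the nearest), and the exact permutation test gave its smallest two-sided p of 0.1. The mean difference was -0.18, and without GFP lysate 1, whose gap of 1.36 stood apart, it was -0.076. RNA of input and polysome samples was extracted by different methods, the same ones for both dsRNAs, and the part of this in the gradient was not tested.

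**Figure D3:**
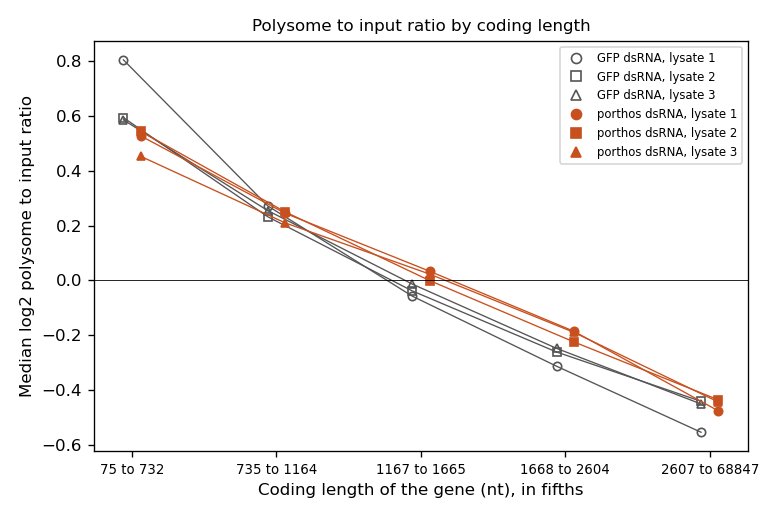
Median log2 polysome to input ratio (y) of protein-coding genes in 5 classes of coding length in nt (x), 1 line per lysate, open grey symbols for GFP and filled orange for porthos dsRNA. In class 1 the GFP lysates lie at 0.80, 0.59 and 0.59 and the porthos lysates at 0.53, 0.54 and 0.45; in class 4 the order is the other way round.

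The length of the whole transcript followed the change as closely as coding length, and UTR lengths and exon number less so. Spearman's rho across the 8419 genes was 0.25 for coding length, 0.26 for transcript length, 0.14 for 3′ UTR length, 0.09 for 5′ UTR length, 0.15 for the number of exons and 0.23 for the mean level. These are descriptions across genes, which share the 12 libraries and differ in depth. In class 1, genes with a 3′ UTR of up to 179 nt had a median change of -0.21 and those with a longer one -0.12. For the 5′ UTR, split at 104 nt, the medians were -0.20 and -0.13. In class 3, split at 143 nt of 5′ UTR, the medians were 0.068 and 0.066. In classes 4 and 5 the order was the other way round, with 0.11 and 0.070 (split at 195 nt) and 0.042 and 0.020 (297 nt). For the 3′ UTR the medians of class 3 were 0.029 and 0.093 (split at 220 nt), and those of class 4 were 0.085 and 0.087. When a trend of gene length was taken out of each library, class 1 had a median of -0.045 and class 4 one of 0.032, and 94 genes were higher and 22 lower. GC content, upstream start codons and promoter motifs were not analysed here.

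Counts in the gene lists are read against the shares over all 9024 genes tested. Of these, 1.94% rose and 0.576% fell, 11.4% were higher and 7.13% lower at an unadjusted p under 0.05, and 50.8% had a change below 0. The shares also varied with mean level. In 5 classes of protein-coding genes by mean CPM, 0.0594% rose and 0% fell in the lowest, and 5.34% and 0.653% in the highest. Median changes in the lowest and highest class were -0.091 and 0.082. Called genes that rose had a median of 140 CPM, those that fell 82.2 and all genes tested 39.6. The lists were not split by level.

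Genes for oxidative phosphorylation (OXPHOS), the respiratory chain and ATP synthase of mitochondria, had changes mostly below 0, and most of these mRNAs are short. Of 72 nuclear-encoded subunit genes tested, 63 had a change below 0 (87.5%), 7 fell (9.72%) and 2 rose (2.78%), and the median was -0.27, beside -0.0055 over all genes. List medians of the log2 ratio were 1.15, 0.92 and 0.84 in the GFP lysates and 0.65, 0.78 and 0.57 in the porthos lysates. The porthos lysates lay below all GFP lysates. Of the 57 subunit genes in length class 1, 56 were below 0 (median -0.30), and of the 15 longer ones 7 were below 0 (median 0.06). With the length trend removed the list's median was -0.11, with 3 genes lower and 2 higher. Without the lysate term no OXPHOS gene was called (edgeR), and without GFP lysate 1 or porthos lysate 1 none was either, with medians of -0.20 and -0.26; at an unadjusted p under 0.05, 37 were lower and 5 higher in the fit with all lysates. All 13 mRNAs encoded in the mitochondrial genome were in the files, and 0 had enough counts to be tested.

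Within ATP synthase and within complex I, genes of small subunits fell and a gene of a large subunit rose. In ATP synthase, ATPsynG, a small membrane subunit, had log2 ratios of 1.50, 1.18 and 1.09 in the GFP lysates and 0.52, 0.66 and 0.73 in the porthos lysates. Its change was -0.62 ± 0.11 (adjusted p = 0.0057), and all porthos lysates lay below the GFP lysates. ATPsynbeta, the catalytic subunit, had -0.45, -0.39 and -0.19 in the GFP lysates and 0.19, -0.15 and 0.25 in the porthos lysates (change 0.44 ± 0.10, adjusted p = 0.029). Its coding sequence has 1533 nt and that of ATPsynG 297 nt. ATPsynCF6, coupling factor 6, fell as well (-0.41 ± 0.11, adjusted p = 0.049).

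In complex I, the NADH dehydrogenase, the core subunit gene ND-49 rose. It had 164, 174 and 173 CPM in the GFP inputs and 190.0, 194 and 191 CPM in the porthos inputs. On polysomes it had 84.7, 97.5 and 105 CPM with GFP dsRNA and 181, 130.0 and 186 CPM with porthos dsRNA, so that the groups were apart there and porthos lysate 2 stood nearest to the GFP lysates. The change was 0.61 ± 0.12 (adjusted p = 0.01). The accessory subunit genes ND-B14.5A (-0.53 ± 0.14, adjusted p = 0.042) and ND-B18 (-0.39 ± 0.11, adjusted p = 0.046) fell. All 26 complex I genes of length class 1 had a change below 0 (median -0.28), where the other genes of that class had a median of -0.16.

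In complex III, which passes electrons to cytochrome c, ox had log2 ratios of 1.55, 1.36 and 0.97 in the GFP lysates and 0.76, 0.71 and 0.28 in the porthos lysates (change -0.70 ± 0.13, adjusted p = 0.0081). UQCR-Q fell by 0.57 on the log2 scale (SE 0.13, adjusted p = 0.022). In complex IV, cytochrome c oxidase, all 13 tested genes had a change below 0 and lay in length class 1, and COX7C fell (-0.55 ± 0.11, adjusted p = 0.012). In complex II none of the 4 genes was called in edgeR's test. SdhC, SdhB and SdhA had changes of -0.41 ± 0.14, -0.31 ± 0.11 and 0.28 ± 0.11 (adjusted p = 0.101, 0.105 and 0.145), and all 4 complex II genes had an unadjusted p under 0.05. SdhA, the long flavoprotein subunit, had the opposite sign to the others named.

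Ribosomal protein mRNAs, which are short and abundant, had smaller changes of the same sign. Of 79 genes for proteins of the cytoplasmic ribosome, 76 had a change below 0 (96.2%), 4 fell (5.06%, against 0.576% of all genes) and 0 rose (at an unadjusted p under 0.05, 32 and 0), and the median was -0.20. Their list medians were 0.37, 0.16 and -0.06 in the GFP lysates and -0.08, 0.11 and -0.17 in the porthos lysates, so the groups overlapped. RpS20 had 271, 269.6 and 253 CPM in the GFP inputs and 299, 305 and 291 CPM in the porthos inputs. On polysomes it had 408, 367 and 289 CPM with GFP dsRNA and 229, 278 and 189.9 CPM with porthos dsRNA. Its groups were apart on polysomes, and its change was -0.79 ± 0.12 (adjusted p = 0.003). RpL41, whose coding sequence of 75 nt is the shortest tested, fell by 0.65 on the log2 scale (SE 0.12, adjusted p = 0.0081), with an input change of 0.59 ± 0.12 and a polysome change of -0.09. RpL39 (-0.62 ± 0.14) and RpS21 (-0.46 ± 0.12) also fell, and the lysates of RpS21 overlapped. With the length trend removed the list's median was -0.070 and 1 gene was lower, and without the lysate term 1 was. The call rested on single lysates. Without GFP lysate 1 the median was -0.10 with 0 lower genes, without porthos lysate 3 it was -0.12 with 2, and without GFP lysate 3 it was -0.31 with 18. Without porthos lysate 1 there were 0 lower genes, without GFP lysate 2 there was 1 and without porthos lysate 2 there were 20.

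The median over 72 mitochondrial ribosomal protein genes was -0.16; 56 lay below 0, 1 fell and 1 rose, each 1.39% of the list and near the 0.576% and 1.94% of all genes. mRpS14 fell (-1.05 ± 0.18, adjusted p = 0.0057), with log2 ratios of 1.60, 1.46 and 1.08 in the GFP lysates and 0.19, 0.51 and 0.38 in the porthos lysates. It overlaps other tested genes on both strands, so its counts are uncertain. mRpL37 rose (0.44 ± 0.12, adjusted p = 0.049). The 47 genes of length class 1 had a median of -0.26 and the 25 longer ones one of 0.03. With the length trend removed the list's median was -0.016.

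**Figure D4:**
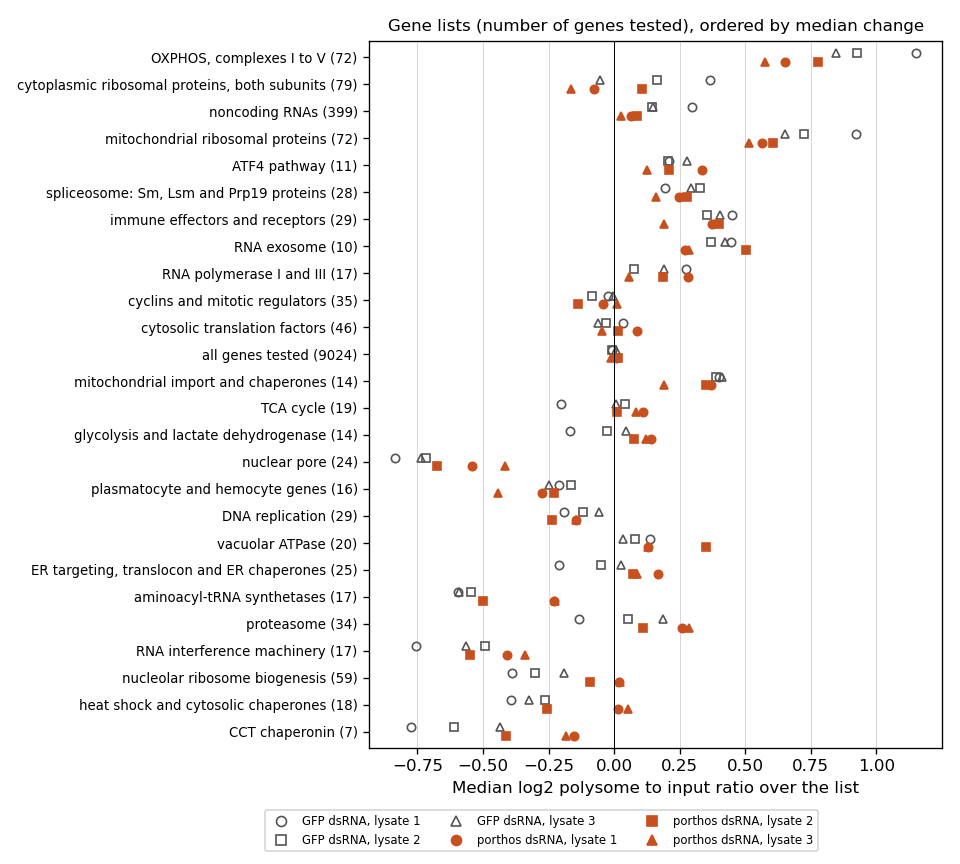
Median log2 polysome to input ratio (x) of each gene list in each lysate, with the number of genes tested in brackets; lists run from the lowest median change (top) to the highest (bottom). Open grey symbols are GFP lysates and filled orange symbols porthos lysates; OXPHOS lies at 0.84 to 1.15 with GFP and 0.57 to 0.78 with porthos dsRNA, and CCT chaperonin at -0.77 to -0.44 and -0.41 to -0.15.

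Genes for the assembly of ribosomes in the nucleolus had changes mostly above 0, with the most genes that rose among the lists. Of 59 tested, 46 had a change above 0, 9 rose (15.3%, against 1.94% of all genes) and 0 fell (at an unadjusted p under 0.05, 32 and 3), and the median was 0.25. List medians of the log2 ratio were -0.39, -0.30 and -0.19 in the GFP lysates and 0.02, -0.09 and 0.02 in the porthos lysates. The porthos lysates were all higher. Ns1, which encodes nucleostemin, a nucleolar GTPase, had 208, 202 and 197 CPM in the GFP inputs and 231, 232 and 214 CPM in the porthos inputs. On polysomes it had 102, 113 and 119.5 CPM with GFP dsRNA and 221, 177 and 204 CPM with porthos dsRNA (change 0.69 ± 0.11, adjusted p = 0.003). Nopp140, a nucleolar chaperone of small ribonucleoproteins, rose by 0.62 ± 0.11 and CG8939 by 0.65 ± 0.12. The other 6 were mod, peng, Nnp-1, Noc2, CG12301 and the DEAD-box helicase gene pit. Without the lysate term 2 of the list's genes were called, without GFP lysate 1 or porthos lysate 1 none was, and without porthos lysate 2 there were 27; the list's median ran from 0.18 to 0.29 in the 6 fits that left out a lysate.

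In this list, too, the direction went with coding length. Of the 53 genes longer than class 1, 45 had a change above 0 (median 0.26), and of the 6 short ones 5 were below 0 (median -0.27). In length class 4, 25 nucleolar genes had a median of 0.29 and the other 1654 genes one of 0.084. With the length trend removed the list's median was 0.21, with 4 genes higher.

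Several chaperone genes also rose. Genes of the chaperone, proteasome and other lists below were called with all 6 lysates in the fit. None of them was called without GFP lysate 1, GFP lysate 2 or porthos lysate 1. Without the lysate term, whose pairing is assumed, Prp19 alone of these genes was called. Without porthos lysate 3 no gene of the chaperone, ER and proteasome lists was called. All 7 tested genes of the CCT chaperonin, the ring that folds actin and tubulin, had a change above 0 (median 0.36), and 3 rose: CCT6 (0.47 ± 0.11), CCT7 (0.46 ± 0.11) and CCT3 (0.41 ± 0.10; adjusted p = 0.022, 0.025 and 0.039). CCT6 had log2 ratios of -0.92, -0.88 and -0.74 in the GFP lysates and -0.23, -0.59 and -0.32 in the porthos lysates. Its groups did not overlap, and porthos lysate 2 was again nearest to the GFP lysates. Among 18 heat shock and cytosolic chaperone genes the median was 0.32, 3 rose and 0 fell (9 and 0 at an unadjusted p under 0.05). These were the constitutive chaperone genes Hsc70-4 (0.49 ± 0.10, adjusted p = 0.013) and Hsc70-3, the BiP of the endoplasmic reticulum (ER; 0.41 ± 0.10, adjusted p = 0.036), and the DnaJ gene Droj2 (0.37 ± 0.10, adjusted p = 0.047). Of 25 genes for ER targeting and ER chaperones, 2 rose: Hsc70-3, which is counted in both lists, and CaBP1, whose lysates overlapped. Srp14, a small subunit of the signal recognition particle, fell (-0.63 ± 0.17, adjusted p = 0.049). The median of the ER list was 0.15, and 0.098 without GFP lysate 3. Its 9 short genes had a median of -0.20 and the 16 longer ones one of 0.28.

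Of 34 proteasome genes, 27 had a change above 0 (median 0.17; 0.11 without GFP lysate 1 or porthos lysate 3), 4 rose (11.8%, against 1.94% of all genes) and 0 fell (14 and 0 at an unadjusted p under 0.05). Without porthos lysate 2 there were 12 higher genes and without porthos lysate 3 there were 0. The 4 that rose with all lysates in the fit were the genes of the ATPase subunits Rpt6, Rpt5 and Rpt1 and of the lid subunit Rpn5. Rpt6 had log2 ratios of -1.10, -0.93 and -1.04 in the GFP lysates and -0.35, -0.78 and -0.28 in the porthos lysates (change 0.56 ± 0.11, adjusted p = 0.012). The list medians of the lysates overlapped. Of 17 aminoacyl-tRNA synthetase genes, whose products charge tRNAs, 15 had a change above 0 (median 0.15; 0.099 with the length trend removed), and GlnRS (0.39 ± 0.09) and AlaRS (0.43 ± 0.11) rose. Of 17 genes of the RNA interference machinery, vig (0.58 ± 0.13), aub (0.46 ± 0.12) and Fmr1 (0.40 ± 0.11) rose (median 0.19; 0.11 without GFP lysate 1, 0.13 without GFP lysate 3 and 0.057 without porthos lysate 3).

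Of 19 genes of the TCA cycle, 3 rose and 0 fell (8 and 3 at an unadjusted p under 0.05), with a median of 0.030. The list shares SdhC, its lowest change (-0.41), with complex II above. Of its 17 genes longer than class 1, 11 had a change above 0 and 6 below (median 0.20). Ogdh, a subunit of oxoglutarate dehydrogenase, rose by 0.45 ± 0.11, Idh3g, of isocitrate dehydrogenase, by 0.36 ± 0.09 and ScsbetaG, of succinyl-CoA synthetase, by 0.46 ± 0.12. Of 29 DNA replication genes (median 0.075), Mcm6 (0.48 ± 0.10), RnrS (0.47 ± 0.11) and RPA1 (0.44 ± 0.11) rose (10.3%, against 1.94% of all genes), and of 14 mitochondrial import genes (median 0.0081) the receptor gene Tom70 (0.45 ± 0.11) and the chaperonin gene Hsp60A (0.37 ± 0.10) rose while Tim8, a small carrier of the intermembrane space, fell (-0.41 ± 0.11). The 7 import genes of length class 1 had a median of -0.25 and the 7 longer ones one of 0.25. Of 10 RNA exosome genes (median -0.042), the nuclease gene Dis3 rose by 0.37 ± 0.10. Of 24 nuclear pore genes (median 0.061), Nup93-1 (0.48 ± 0.11) and Nup50 (0.40 ± 0.10) rose (8.33%). Of 28 genes of the splicing list (median -0.078), Prp19 rose (0.58 ± 0.10, adjusted p = 0.0059) and LSm3, a small ring protein, fell (-0.50 ± 0.12, adjusted p = 0.031).

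Lists in which edgeR called no gene were glycolysis (14 tested, median 0.056; at an unadjusted p under 0.05, 3 higher and 0 lower), the vacuolar ATPase (20, 0.15, and 0.075 without GFP lysate 3 and 0.095 without porthos lysate 3; 5 and 2), RNA polymerases I and III (17, -0.029; 4 and 2), cyclins and mitotic regulators (35, -0.013; 4 and 1), immune genes (29, -0.045; 1 and 0), hemocyte genes (16, 0.069; 2 and 1) and the ATF4 pathway (11, -0.10; 0 and 1). Of the replication-dependent histones 1 gene was tested, His2B:CG33868 (-0.029 ± 0.26). Of 46 cytosolic translation factor genes 22 had a change above 0 (median -0.0069). The 1 called, eIF4B, had 2 to 67 counts per library and lysates that overlapped (change 4.07 ± 0.79), and it was the gene that rose at least 2-fold.

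The list of noncoding RNAs holds 313 genes annotated as ncRNA, 54 pseudogenes, 24 small nucleolar RNAs and 8 small nuclear RNAs. The median was -0.19 over these 399 and -0.16 over the ncRNA genes alone, with 5 lower (1.25%, against 0.576% of all genes) and 0 higher (32 and 5 at an unadjusted p under 0.05). Their list medians of the log2 ratio were 0.30, 0.14 and 0.15 in the GFP lysates and 0.06, 0.09 and 0.03 in the porthos lysates, and the porthos lysates lay lower. Uhg3, a host gene of small nucleolar RNAs, had ratios of 0.42, 0.32 and 0.22 in the GFP lysates and -0.26, -0.15 and -0.26 in the porthos lysates (change -0.55 ± 0.10, adjusted p = 0.0059). Uhg2, another such host gene (-0.75 ± 0.17), and hpRNA:CR33940, a hairpin RNA that is processed into small interfering RNAs (-0.85 ± 0.18), fell too, as did lncRNA:CR43883 and hpRNA:CR32205. With the length trend removed the list's median was -0.056.

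**Figure D5:**
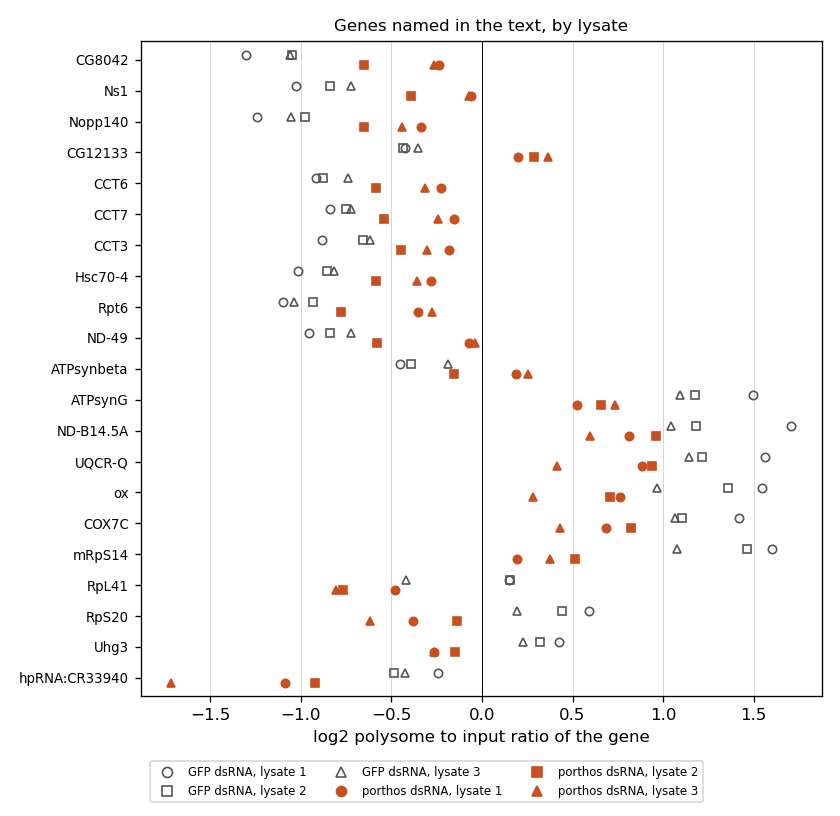
Log2 polysome to input ratio (x) of 21 genes named in the text, 1 row each, with open grey symbols for the 3 GFP lysates and filled orange symbols for the 3 porthos lysates. In the upper 11 rows the porthos lysates lie higher than the GFP lysates, and in the lower 10 rows they lie lower; porthos lysate 2 (square) is often the one nearest to the GFP lysates.

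Among single genes the rise of CG8042 was the largest by the rule for named genes, which asks for at least 10 CPM in a group. CG8042 lies on dm6 chromosome 3L, 7972449 to 7974991, minus strand, and had 144, 127 and 128 CPM in the GFP inputs and 129.9, 136 and 136 CPM in the porthos inputs. On polysomes it had 58.2, 61.4 and 61.5 CPM with GFP dsRNA and 110.0, 86.3 and 114 CPM with porthos dsRNA (change 0.76 ± 0.11, adjusted p = 0.003). The inputs overlapped and the polysome libraries were apart. FBgn0044510, with no symbol here (0.75 ± 0.12), CG6418 (0.70 ± 0.13), CG12133 (0.69 ± 0.12), PIG-S, of the attachment of lipid anchors (0.68 ± 0.17), the maltase gene Mal-B2 (0.66 ± 0.17), FBgn0032361 (0.66 ± 0.18) and the aminopeptidase gene ApepP (0.65 ± 0.11) followed.

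CG13751 had the largest fall by that rule. It lies on chromosome 2R, 8900241 to 8900617, plus strand, and its coding sequence has 231 nt. Its log2 ratios were 1.97, 1.50 and 1.28 in the GFP lysates and 0.50, 0.70 and 0.36 in the porthos lysates, with no overlap (change -1.09 ± 0.17, adjusted p = 0.003). The cuticle protein gene Cpr50Cb (-0.89 ± 0.20), P5cr-2, of proline synthesis (-0.86 ± 0.23), and CG17776 (-0.71 ± 0.18) also fell. Of the 52 genes that fell, 26 overlap an exon of another tested gene, beside 46 of the 175 that rose and 30.3% of all genes tested. CG13751, P5cr-2, RpS20, ox, RpL39, ND-B18, COX7C and Srp14 are among those that do so on the opposite strand, and CG8042, CG6418, Nopp140, ATPsynbeta and CCT7 among those that rose. The strand setting of the counting is not given in the sources used here, so reads of such genes may include those of their partners.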

How the data were processed

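Poly(A)-selected RNA of inputs and polysome fractions was sequenced with a directional kit, per the labels' protocols. The authors deposited whole-number read counts per gene, 1 file per library; HISAT2 2.1.0, featureCounts 1.4.6 and build dm6 are named in the submitters' processing notes. The strand setting and the annotation release: not given in the sources used here. Genes were filtered with filterByExpr, and their counts were scaled by TMM and fitted with edgeR 4.0.16 (R 4.3.3; glmQLFit, glmQLFTest) with a term per lysate and a polysome effect per dsRNA, which leaves 4 residual degrees of freedom (common biological coefficient of variation 0.0691). The fit was tested on simulated data in which the input and polysome library of a lysate shared effects. That test takes the pairing as given and cannot bear on it. Calls are at a Benjamini-Hochberg adjusted p under 0.05. Log2 ratios per lysate use a prior count of 2. The input and polysome changes come from a fit with 1 term per group. DESeq2 1.42.0 and limma 3.58.1 served as alternatives.

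Lengths and names came from an Ensembl annotation of the same assembly, matching 16647 identifiers; 376, with 5.29% of counts, did not match. Coding length is that of the transcript with the longest coding sequence, and overlap means shared exon bases. Gene lists (32) and members were chosen with earlier results of these data known, and porthos was left out of them. Trap1, a mitochondrial chaperone caught by a symbol pattern, was taken out of the ER list after the files were read. Splits of lists by coding length and the test of the length difference were added after seeing the data. Genes named are porthos, the 10 largest called changes per direction among genes reaching 10 CPM in some group, plus up to 3 genes of each list with the smallest p. CG12301, Noc2, mod, peng, Nnp-1, pit, Rpt1 and hpRNA:CR32205 are named to complete counts. Same-numbered input and polysome libraries correlated in their deviations from group means at r = 0.026 to 0.283 over genes of at least 10 CPM, not all above 0.1, so the pairing is assumed. No replicate pair was alike within counting noise (lowest chi-square per degree of freedom 2.33). The floor of 3 counts equals 0.252 to 0.397 CPM; it covers counting error alone, as PCR reads need not be separate molecules.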

Additional observations from a re-analysis of the deposited data

Results flagged for a closer look

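For 17 genes called in the test of the difference, with 10 CPM or more in a group, the 3 GFP lysates lay on one side of a log2 ratio of 0 and the 3 porthos lysates on the other. Every called gene differs between the dsRNAs by that test, and these 17 were listed because their TMM-scaled ratios also lay on opposite sides of 0. Where 0 lies depends on the scaling: TMM factors were 0.955 to 0.975 for inputs and 1.02 to 1.07 for polysome libraries. Some ratios lay close to 0, as for Cnb with porthos dsRNA (-0.015, -0.025 and -0.050) and Clic with GFP dsRNA (-0.086, -0.075 and -0.069). Whether each gene crosses 0 under another scaling was not tested. In 12 genes the ratio was below 0 with GFP and above 0 with porthos dsRNA. The changes were 0.69 for CG12133, 0.55 for the tRNA methyltransferase gene Trmt6, 0.54 for the immunophilin gene Fkbp39 and 0.53 for the dihydrouridine synthase gene Dus3. They were 0.48 for Idgf2, which encodes a secreted growth factor, 0.48 for CG7133, 0.47 for CG30291, 0.45 for the co-chaperone gene Sgt and 0.44 for CG4806. For Scamp, of secretory vesicle membranes, the change was 0.41, for Clic 0.39 and for CG12608 0.38. Dus3 had ratios of -0.37, -0.38 and -0.36 in the GFP lysates and 0.15, 0.17 and 0.13 in the porthos lysates.

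In 5 genes the ratio was above 0 with GFP and below 0 with porthos dsRNA: the changes were -0.86 for P5cr-2, -0.79 for RpS20, -0.60 for the RNA cyclase gene Rtca, -0.55 for Uhg3 and -0.38 for Cnb. P5cr-2, RpS20 and Rtca overlap exons of other tested genes, as does Fkbp39. Of the 17, RpS20 alone was called without the lysate term.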

How the results depend on the processing

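All 175 higher and 52 lower genes kept their direction in each of the 15 alternatives that tested them. The alternatives share libraries with the calls, which favours this, and the number passing varied. Higher and lower genes numbered 7 and 2 with no replicate block, 28 and 11 with a replicate block by number alone, 272 and 189 with no filter, and 94 and 22 with the length offset. There were 75 higher genes with library totals, 108 with the stricter filter, and 31 lower genes with DESeq2. Leaving out a lysate gave from 0 to 782 higher and from 0 to 268 lower genes. RLE scaling (131 and 44) and limma voom (207 and 50) stayed within 1.5 times. The pairing behind the lysate block is assumed: over all genes each input correlated best with the polysome library of its own number (r = 0.034 to 0.136), a hint from the data and not the design. Over genes of at least 10 CPM this did not hold for GFP input 2 (r = 0.026 with its own number and 0.081 with polysome library 1). The median change of length class 1 was -0.045 with the length offset, which removes length trends by construction, and that of class 4 was 0.044 with library totals and 0.032 with the offset. Without 1 lysate these medians ran from -0.23 to -0.10 and from 0.054 to 0.11. The difference between length classes 1 and 5, with lysates left out by a choice made after seeing the data, ran from -0.24 to -0.076. Of 495 list medians under alternatives, 13 moved by more than the spread between lysates, 6 of them with the length offset. That spread can be as wide as the change. For cytoplasmic ribosomal proteins the SD was 0.21 among GFP and 0.14 among porthos lysates, beside a median change of -0.20. A median of -0.070 with the length offset was thus not counted as moved. Of 1536 values of named genes, 436 no longer passed and 56 came to pass. The 1536 include genes not called in the fit as reported, which could not stop passing. Without GFP lysate 1 or porthos lysate 1, where 0 genes were called, 65 values stopped passing in each. The 3 values that reversed were all of His2B:CG33868, which was not called: 0.20 with the length offset, 0.087 without GFP lysate 1 and 0.21 without porthos lysate 1. Without 1 lysate its values ran from -0.25 to 0.21. Where a cause is not named it was not tested. Checks of GC content, upstream start codons and promoter motifs were not run.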

Other observations

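Within the noncoding list, small nuclear RNAs, which the poly(A) selection should largely leave behind, had a median change of -0.90 over 8 tested, and small nucleolar RNAs one of -0.25 over 24, with 0 genes of either class called by edgeR. By chromosome, medians ran from -0.016 on 2R and 3R to 0.070 on the small chromosome 4, where 2 of 85 genes rose. That share is near the 1.94% of all genes tested, and the 2 genes are ATPsynbeta and ND-49, given above.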
